A study of Mus musculus with 76 samples.

Results

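The tumours described here carry the lipid kinase PIP5K1B as the gene that replaces the original oncogene, and they make up 6 of the 76 arrays of the series. They were chosen by the label of the introduced gene alone, with no measured value in the choice, and were set against the equally weighted mean of the other 12 introduced-gene groups, which hold 70 arrays. All 76 tumours grew in the C57BL/6 strain in a directed complementation (DC) model. Its tumours start from a doxycycline-inducible HER2(V659E) oncogene, HER2 is shut off by withdrawing doxycycline, and a gene is put in its place. Every group, the HER2 group included, shares this history. The other groups are ErbB3, FAK1, FGFR2aIIIb, FGFR2aIIIc, FGFR3, HER2 given back, MAP3K11, MAP3K7, RON+MSP, RONd160, RSK2 and TNK2, with 4 arrays for FAK1 and 6 for each of the rest. The PIP5K1B tumours are labelled as without cachexia, as are all groups but MAP3K11. The PIP5K1B arrays carry the labels T1 replicate 1, T2 replicates 1, 2 and 3, and T3 replicates 1 and 2. The labels do not say what T stands for, nor the promoter that drives the introduced gene, nor which animals or lines the tumours came from. They call the arrays biological replicates, so p-values below rest on the scatter among arrays of a group, part of which may be technical.

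PIP5K1B is the beta form of the type I phosphatidylinositol phosphate kinases. These enzymes add a phosphate to a singly phosphorylated phosphatidylinositol and so make PIP2, a lipid of the inner face of the plasma membrane. PI 3-kinases turn PIP2 into the lipid that recruits AKT, phospholipases C cut it into diacylglycerol and inositol trisphosphate, and PIP2 itself binds actin regulators and the adaptors of clathrin-coated pits. ERBB receptors such as HER2 signal in part through these enzymes.

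RNA was read on Affymetrix arrays with 45101 probe sets, and the deposited values are on a log2 scale, so that 1 unit is a 2-fold difference. The median of an array was 5.45 to 5.56. Probe sets for a bacterial gene with no mouse counterpart read 2.95 in the median, and a value near it is background. Each gene was read from its probe set with the highest mean, and 13868 genes were tested. The 8 markers of epithelial tumour cells were all measured in the PIP5K1B tumours and limma called 0 against the other groups (1 at an unadjusted p under 0.05), with their mean on the 6 arrays between -0.19 and 0.18 of the mean over all arrays, against -1.39 to 1.06 on the other 70 arrays.

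The 6 PIP5K1B arrays were not 6 independent readings. Matched on their autosome medians, they fell into 3 pairs: the first holds T1 replicate 1 and T2 replicate 2, the second T2 replicate 1 and T3 replicate 1, and the third T2 replicate 3 and T3 replicate 2. With the chromosome medians taken out, which the matching did not use, expression correlated across genes at r = 0.89, 0.70 and 0.83 within these pairs. The median between PIP5K1B arrays of different pairs was -0.16 over 12 comparisons, and between PIP5K1B arrays and arrays of other groups it was -0.02 over 420. By this measure arrays of different PIP5K1B pairs were no more alike than arrays of different groups. Genes were therefore tested in a fit that takes arrays as separate and in a fit with pairs of arrays as a random block, whose estimated correlation within pairs was 0.63. A count, SE or p-value with no fit named is from the fit with arrays as separate. Such SEs and p-values take no account of the correlation within pairs and may be too small. A gene is called at an adjusted p under 0.05.

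Against the other 12 groups, 2593 of 13868 genes (18.7%) were called in the PIP5K1B tumours, 1560 higher (11.2%) and 1033 lower (7.45%). With pairs as a block 501 were called (3.61%), 329 higher (2.37%) and 172 lower (1.24%), and all 501 were among the 2593. Most differences were small: 79 of the called genes differed by at least 2-fold, and 50 of these were called in both fits. The split by direction depends on the scaling, since 60.2% of the called genes were higher with the values as deposited, 44.5% once the arrays were quantile normalized and 68.1% once they were median centred. The third pair and the first pair carried most of the calls, as 586 genes were called without the third pair, 639 without the first and 4045 without the second. Leaving out T1 replicate 1 alone gave 1290, and leaving out T2 replicate 2, T2 replicate 3 or T3 replicate 2 gave 1475 to 1531.

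In 2 genes the PIP5K1B arrays and the other 70 did not overlap. Glp1r, the receptor for the incretin hormone GLP-1, read 6.51, 6.36, 6.33, 7.11, 6.20 and 6.97 in the PIP5K1B tumours (T1 replicate 1, T2 replicates 1 to 3, T3 replicates 1 and 2), against 3.29 to 6.17 with a median of 3.80 on the other arrays. It was the 1 gene (0.00721% of those tested) with every PIP5K1B array above every other array. The log2 difference was 2.55 (SE 0.25, adjusted p 3.35e-11, and 3.53e-09 with pairs as a block). Of the other groups FGFR2aIIIc came nearest, with a mean of 5.04. Crip2, a small LIM-domain protein, read 8.07, 9.78, 8.31, 9.04, 9.95 and 8.87 in the PIP5K1B tumours in the same order, against 10.17 to 11.93 with a median of 11.19 on the other arrays. It was the 1 gene (0.00721%) with every PIP5K1B array below every other, and its log2 difference was -2.13 (SE 0.15, adjusted p 1.37e-17, and 1.93e-15 with the block). The second pair was the least low of the 3 pairs for Crip2.

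Crip1, a LIM-domain protein of the same family, lies next to Crip2 on chromosome 12, and the interval between them in GRCm38.p6 is 6505 bases. Crip1 read 11.85, 12.38, 11.92, 11.97, 12.33 and 11.94 in the PIP5K1B tumours, against 12.002 to 13.36 with a median of 12.95 on the other arrays, of which 2 lay below the highest PIP5K1B array. Its log2 difference was -0.84 (SE 0.09, adjusted p 1.88e-10, and 4.58e-09 with the block). The second pair was again the least low. Of the other 12 genes tested within 300 kb of these neighbours, none was called, and their log2 differences ranged between -0.39 for Ighm and 0.22 for Gpr132. Mta1, the tested gene nearest to Crip2 on its other side, had a difference of 0.19 (SE 0.07, adjusted p 0.058), and Tedc1, the gene after Crip1, one of -0.08 (SE 0.10).

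The start regions of these 3 genes are printed because 2 of them had no overlap between PIP5K1B and other arrays and Crip1 is the neighbour of Crip2 that was also lower. They are RefSeq sequences of GRCm38.p6, 250 bases before and 50 after the annotated start, all on the plus strand, with matches to the GC box GGGCGG on either strand in capitals. The Glp1r sequence is chr17:30901617-30901916, that of Crip2 is chr12:113139986-113140285 and that of Crip1 is chr12:113151762-113152061.
Glp1r: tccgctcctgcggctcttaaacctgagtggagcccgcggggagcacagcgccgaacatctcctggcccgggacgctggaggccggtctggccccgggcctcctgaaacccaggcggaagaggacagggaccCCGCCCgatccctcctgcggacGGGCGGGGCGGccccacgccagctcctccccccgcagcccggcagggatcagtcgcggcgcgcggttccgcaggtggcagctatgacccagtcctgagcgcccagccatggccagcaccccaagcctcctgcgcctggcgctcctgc
Crip2: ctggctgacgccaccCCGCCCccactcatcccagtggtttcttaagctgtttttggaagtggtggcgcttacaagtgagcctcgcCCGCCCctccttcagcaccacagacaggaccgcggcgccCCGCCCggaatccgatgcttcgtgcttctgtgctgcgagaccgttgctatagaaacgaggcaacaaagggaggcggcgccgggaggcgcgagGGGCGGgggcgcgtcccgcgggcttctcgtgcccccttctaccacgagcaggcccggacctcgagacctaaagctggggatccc
Crip1: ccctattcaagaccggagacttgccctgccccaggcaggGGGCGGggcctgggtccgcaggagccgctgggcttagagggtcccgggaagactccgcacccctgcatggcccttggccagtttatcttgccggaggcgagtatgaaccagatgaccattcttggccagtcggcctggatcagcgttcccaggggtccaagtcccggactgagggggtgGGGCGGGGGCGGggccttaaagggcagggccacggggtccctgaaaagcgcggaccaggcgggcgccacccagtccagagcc
The GC box was found 3 times at Glp1r, with 1 overlap between matches, 4 times at this Crip2 start and 3 times at Crip1. A second Crip2 start, at chr12:113140355-113140654, held 5. Of 32851 promoters of the same length, 35.7% hold at least 1 GC box, so its presence does not set these genes apart. TATAAA was found in none of the 4 sequences and is held by 13.6% of all. These matches describe letters, not binding.

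**Figure D1:**
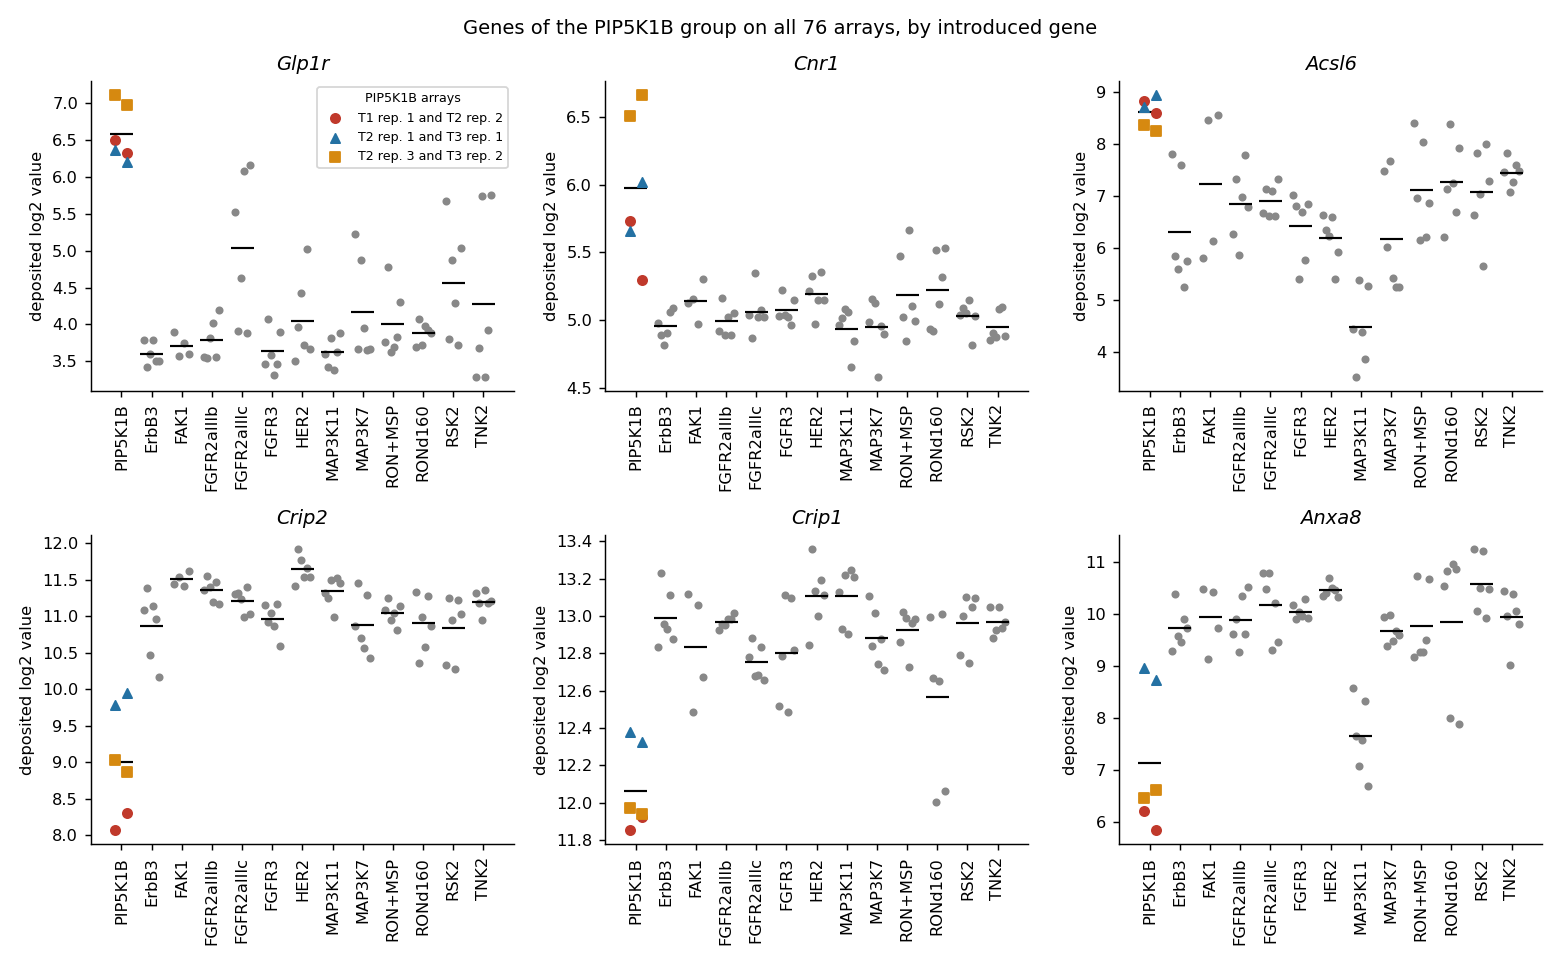
Deposited log2 values of 6 genes on all 76 arrays, with PIP5K1B at the left and the other groups after it, where each point is an array, bars are group means, and the coloured shapes mark the 3 pairs of PIP5K1B arrays. Glp1r lay between 6.20 and 7.11 and Crip2 between 8.07 and 9.95 in PIP5K1B tumours, outside the range of all other arrays.

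Beyond Glp1r, 11 further genes had the largest positive differences from the mean of the other groups among genes called in both fits with all 6 arrays above that mean. PIP5K1B had the highest mean of the 13 groups for 8 of these 12 genes, and the second highest for Phex, after HER2, for Ndst3, after RONd160, and for Grem1 and Rgcc, after RSK2. Acsl6, which activates long-chain fatty acids and is best known from brain, read 8.24 to 8.93 with a median of 8.65 in PIP5K1B tumours, against 3.52 to 8.54 with a median of 6.68 on the other arrays, a log2 difference of 2.03 (SE 0.34). PIP5K1B had the highest mean of the 13 groups, and 4 other arrays reached its range. Ppp1r9a (neurabin, an actin-binding scaffold of protein phosphatase 1) was higher by 1.63 (SE 0.35). The potassium channel subunits Kcnf1 and Kcnab1 were higher by 1.47 (SE 0.42) and 1.38 (SE 0.30), and 43 of the other 70 arrays lay above the lowest PIP5K1B array for Kcnf1. Grem1, a secreted antagonist of bone morphogenetic proteins, was higher by 1.40 (SE 0.28), although the RSK2 group had a higher mean, 9.82, than the 9.49 ± 0.41 of PIP5K1B (SD, n = 6). Phex, an endopeptidase of phosphate balance, was higher by 1.46 (SE 0.32), and Spock3, a secreted proteoglycan, by 1.89 (SE 0.45).

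Spock3 was uneven within the group: it read 6.96 and 6.79 in the second pair and 3.70 to 5.02 in the other 4 PIP5K1B arrays. Without that pair the difference was 1.12 and not called. Mfap3l, the heparan sulfate enzyme Ndst3, tissue factor F3 and the cell cycle regulator Rgcc were higher by 1.08 to 1.11. The higher genes named here were called in both fits. Kcnf1 lost its call without T1 replicate 1 alone, at a difference of 1.34.

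Among the 12 genes with the largest negative differences by the same rule, Anxa8, an annexin that binds membrane phospholipids in the presence of calcium, fell furthest. It read 6.21, 8.96, 5.83, 6.45, 8.73 and 6.60 in PIP5K1B tumours, against 6.69 to 11.25 with a median of 9.94 on the other arrays, and the log2 difference was -2.67 (SE 0.32, adjusted p 9.98e-09). The second pair lay more than 2 log2 units above the other 4 arrays, and the MAP3K11 group, with a mean of 7.64, was the other low group: PIP5K1B was called below 11 of the 12 groups. Tmem255a (-1.46), the nucleosome assembly gene Nap1l2 (-1.12), the sulfoxide reductase Msrb3 (-1.06) and the ER export gene Sec16b (-1.09) were lower as well. Etl4 fell by 1.19 on the log2 scale (SE 0.15) and Fam83h, which organises keratin filaments, by 1.04 (SE 0.11), each called against 11 of the 12 groups. The connexin Gjb5 (-1.08), the tyrosine phosphatase Ptpn3 (-1.02), the galectin-like Lgalsl (-1.02) and the gelatinase Mmp2 (-1.12) completed the 12. PIP5K1B had the lowest mean of the 13 groups for 9 of them, and lay above HER2 for Sec16b, above MAP3K11 for Gjb5 and above ErbB3 for Fam83h. For 16 of these 24 genes other probe sets exist, and 24 of the 26 had the same sign. The 2 exceptions belong to Ndst3 and Spock3, both with a log2 difference of -0.13. Of the 24 genes, 10 lost their call without the first pair, 3 without the second and 4 without the third.

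The next comparison asked which genes set the PIP5K1B tumours apart from each of the 12 groups taken singly. The calls against single groups ranged from 475 genes against FGFR3 to 7205 against MAP3K11, with 1192 against HER2. With pairs as a block these were 45 against FGFR3, 5042 against MAP3K11 and 263 against HER2. Called above all 12 groups were 28 genes (0.202%), and below all 12 were 4 (0.0288%), Crip1, Crip2, Stap2 and Ptgfrn. With pairs as a block 3 remained above, Glp1r, Cnr1 and Dym (0.41, on chromosome 18), and 2 below, Crip1 and Crip2. The count of 32 in all was 13 without either array of the third pair, and 76 and 70 without T2 replicate 1 and T3 replicate 1. These single-group contrasts share the same 6 PIP5K1B arrays.

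Cnr1, the cannabinoid receptor CB1, read 5.73, 5.66, 5.30, 6.50, 6.02 and 6.66 in PIP5K1B tumours, against 4.58 to 5.67 with a median of 5.03 on the other arrays. The log2 difference was 0.92 (SE 0.10, adjusted p 1.63e-10), and 9 other arrays lay above the lowest PIP5K1B array. The third pair was the highest. The second Cnr1 probe set gave a larger difference: it read 7.83 to 9.145 in PIP5K1B tumours, against 2.27 to 8.39 with a median of 3.61 on the other arrays, a log2 difference of 4.68 (SE 0.51, adjusted p 1.446e-09 over all probe sets, and 2.515e-08 with the block). The size of the Cnr1 difference thus depends on the probe set, and its direction does not. Nars2, the mitochondrial asparaginyl-tRNA synthetase, was higher by 0.88 (SE 0.13) and Adam22, a receptor of nerve-cell synapses, by 0.73 (SE 0.13). Adam22 read 6.24 and 5.65 in the third pair and 4.86 to 5.24 in the rest of the PIP5K1B group, against 3.90 to 5.50 on the other arrays. The second Adam22 probe set differed by 0.05 (SE 0.07) and was not called. Stap2, a signalling adaptor, read 5.84 to 6.85 with a median of 6.14 in PIP5K1B tumours, against 6.54 to 7.92 with a median of 7.29 on the other arrays, a difference of -0.999 (SE 0.09). Ptgfrn, a membrane protein of tetraspanin complexes, was lower (log2 difference -0.91, SE 0.12).

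Of the 28 genes above all 12 groups, 22 lie on chromosome 18, which drew attention to that chromosome. Of its 342 tested genes 177 were called higher in PIP5K1B tumours (51.8%) and 14 lower, and with pairs as a block 118 were higher and 3 lower. Over all other genes the shares were 10.2% higher and 7.53% lower. Chromosome 18 held 11.3% of all genes called higher and 35.9% of those called higher with the block. The next highest share of higher calls was 18.2%, on chromosome 8.

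The shift was carried by 4 of the 6 arrays. The median deviation of the chromosome 18 genes was 0.40 and 0.47 in the third pair, 0.22 and 0.19 in the first pair, and 0.01 and 0.00 in the second pair, against -0.08 to 0.06 on the other 70 arrays. It ran along the whole chromosome: in 6 segments of 15 Mb, holding 26 to 108 tested genes each, the median log2 distance from the other 12 groups was 0.39 to 0.62 in the third pair, 0.16 to 0.30 in the first and -0.003 to 0.049 in the second. In number of genes, 271 and 274 of the 342 lay above the mean of the other groups in the third pair, 240 and 241 in the first, and 189 and 188 in the second. DNA was not measured here. Without the third pair the genes called higher on the chromosome dropped to 52, and without the second pair they came to 199.

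The named genes on chromosome 18 did not all show this order of pairs. Me2, the mitochondrial malic enzyme, read 10.02 and 10.01 in the third pair, 9.38 and 9.32 in the first and 8.76 and 8.81 in the second, against a median of 8.46 on the other arrays, and its log2 difference was 0.93 (SE 0.13). Tpgs2, a subunit of the tubulin polyglutamylase, was higher by 0.67 (SE 0.09). It was also highest in the third pair, at 9.40 and 9.31, but read 9.01 and 9.17 in the second and 8.76 and 8.79 in the first. Chromosome 13 moved the opposite way in the second pair, with medians of -0.18 and -0.19 against -0.15 to 0.07 on the other 70 arrays, while the first pair lay at 0.12 and 0.08.

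**Figure D2:**
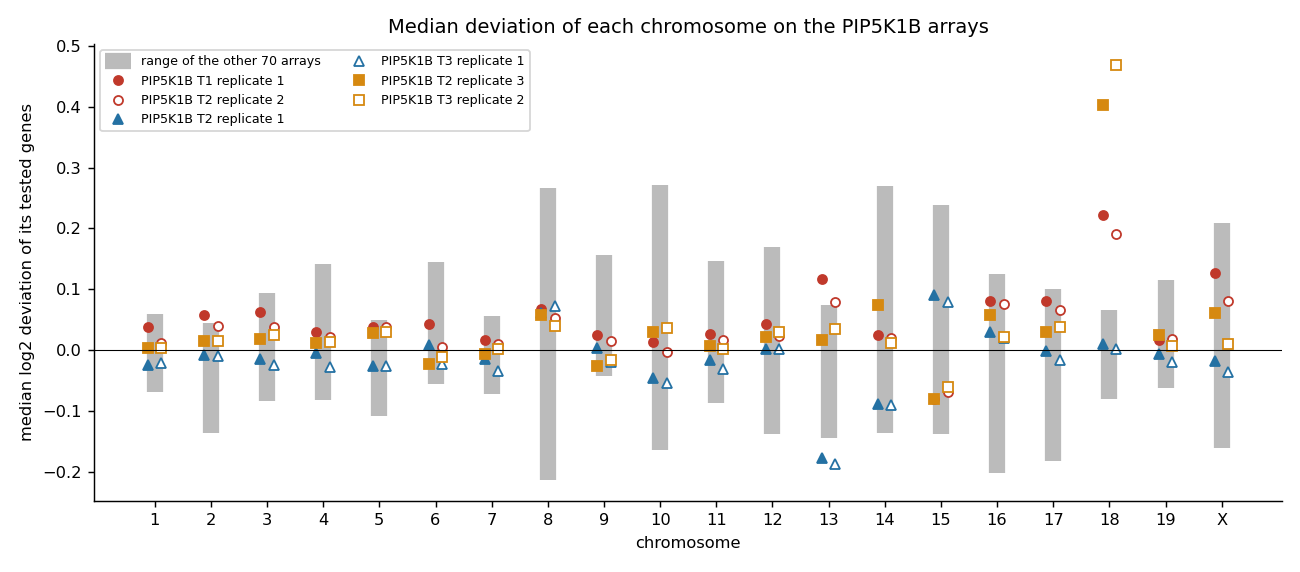
Median log2 deviation of the tested genes of each chromosome, where symbols are the 6 PIP5K1B arrays (1 shape for each pair) and grey bars the range of the other 70 arrays. On chromosome 18 the first pair and the third stood above the range, at 0.19 to 0.47, and the second pair lay inside it.

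The pathway that PIP5K1B itself serves was examined next, starting with the kinase. The mouse gene Pip5k1b read 5.13, 5.17, 5.42, 5.22, 5.59 and 5.42 in PIP5K1B tumours, against 5.02 to 6.72 with a median of 5.66 on the other arrays, and was lower by a log2 difference of -0.40 (SE 0.12, adjusted p 0.018, and 0.11 with pairs as a block). The groups overlap. Its 2 other probe sets differed by -0.42 (SE 0.17) and -0.55 (SE 0.22), neither called over all probe sets. No probe set of the mouse gene was thus higher in the tumours labelled with it. A human gene, or a copy without the end that the probes read, might not be seen, so these probe sets do not check the label.

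Of the 11 phosphoinositide 4- and 5-kinases tested, 1 was called higher and 2 lower in PIP5K1B tumours (9.09% and 18.2%, against 11.2% and 7.45% of all genes). With pairs as a block limma called 0, where 3 had an unadjusted p under 0.05. The median log2 difference was -0.03, against 0.02 over all genes. Pip5k1a, the alpha form, read 8.89 to 9.07 in PIP5K1B tumours, against 8.38 to 9.44 on the other arrays, a difference of 0.04 (SE 0.06). Pip5k1c, the gamma form, was lower (log2 difference -0.28, SE 0.06, adjusted p 0.052 with the block), and Pip4k2b of the type II family was higher by 0.16 (SE 0.06) and not called with the block. Its other probe set lay at background on the PIP5K1B arrays and bears on neither direction. Pip4k2a (-0.05), Pip4k2c (-0.09), Pikfyve (-0.03), Pi4ka (0.03), Pi4kb (-0.18), Pi4k2a (0.01) and Pi4k2b (0.04) were not called.

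Among enzymes that use or remove PIP2 and its products, the calls were of single members. Of 14 PI 3-kinase genes, 3 were higher and 0 lower (21.4% and 0%, against 11.2% and 7.45% of all genes), with a median of 0.05. The catalytic subunit Pik3cb was higher by 0.44 (SE 0.10), the class III kinase Pik3c3 by 0.35 (SE 0.07) and the regulatory subunit Pik3r2 by 0.18 (SE 0.07). Pik3cb and Pik3c3 were also called with the block, and Pik3c3 lies on chromosome 18. Of 24 phosphoinositide phosphatases, 3 were higher and 2 lower (12.5% and 8.33%, near the shares over all genes), and with the block 1 was higher and 0 lower. Mtm1 (myotubularin, a phosphatase of endosomal lipids) was the clearest, at 9.75 and 9.89 in the second pair and 10.87 to 11.19 in the other 4 PIP5K1B arrays, against a median of 10.08 on the other arrays, a log2 difference of 0.76 (SE 0.18). Its PIP5K1B mean, 10.609, was close to the 10.595 of FGFR2aIIIb, and MAP3K11 was lowest at 8.136. Its other probe sets differed by 0.85 (SE 0.22) and 0.12 (SE 0.12), the latter not called. Of 27 genes of the phospholipase C arm, 3 were higher (11.1%, near the share over all genes) and 4 lower (14.8%). Among the lower were the phospholipase Plce1 (-0.94, SE 0.30) and the inositol trisphosphate receptor Itpr2 (-0.51, SE 0.12). With the block 0 were called, where 7 had an unadjusted p under 0.05. Of 22 genes of the PI3K-AKT-mTOR arm, 1 was higher (Foxo3, 0.37, SE 0.09) and 1 lower (Foxo1, -0.34, SE 0.11), and the block left neither. Each was 4.55% of the list, below the shares over all genes.

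Of 35 actin regulators that bind PIP2, 6 were higher and 1 lower (17.1% and 2.86%, against 11.2% and 7.45% of all genes), and with the block 3 and 1. Gap43, a growth cone protein whose effector domain binds PIP2, read 8.73 and 9.18 in the second pair, 9.13 and 8.70 in the third and 6.96 and 6.95 in the first, against a median of 6.50 and a highest value of 12.16 on the other arrays. Its log2 difference was 1.31 (SE 0.32), carried by the second pair and the third. Wasf1, which drives branched actin, was higher by 0.51 (SE 0.13). Pfn2 (profilin) was higher by 0.50 (SE 0.18) and Evl by 0.31 (SE 0.10), and both lost the call with the block. Nf2 (0.20, SE 0.04) and the talin Tln2 (-0.64, SE 0.15) were also called in both fits; these 2 are named after their values were seen.

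Of 25 genes of clathrin endocytosis 4 were lower (16%) and 1 higher, and with the block 2 and 1. Hip1r, which links clathrin coats to actin, read 6.77 to 7.20 with a median of 6.96 in PIP5K1B tumours, against 6.97 to 8.41 with a median of 7.85 on the other arrays, a log2 difference of -0.79 (SE 0.10, adjusted p 8.36e-08). The clathrin light chain Cltb read 8.33 to 8.42 in PIP5K1B tumours, a narrow band at the bottom of the 8.37 to 10.11 of the other arrays, and was lower (log2 difference -0.52, SE 0.13). Epn2 (-0.41, SE 0.13) and Ap2b1 (-0.19, SE 0.05) were not called with the block, and Ap2b1 turned to 0.02 when all its probe sets were averaged. Bin1, named after its value was seen, was higher by 0.61 (SE 0.13) and lies on chromosome 18.

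**Figure D3:**
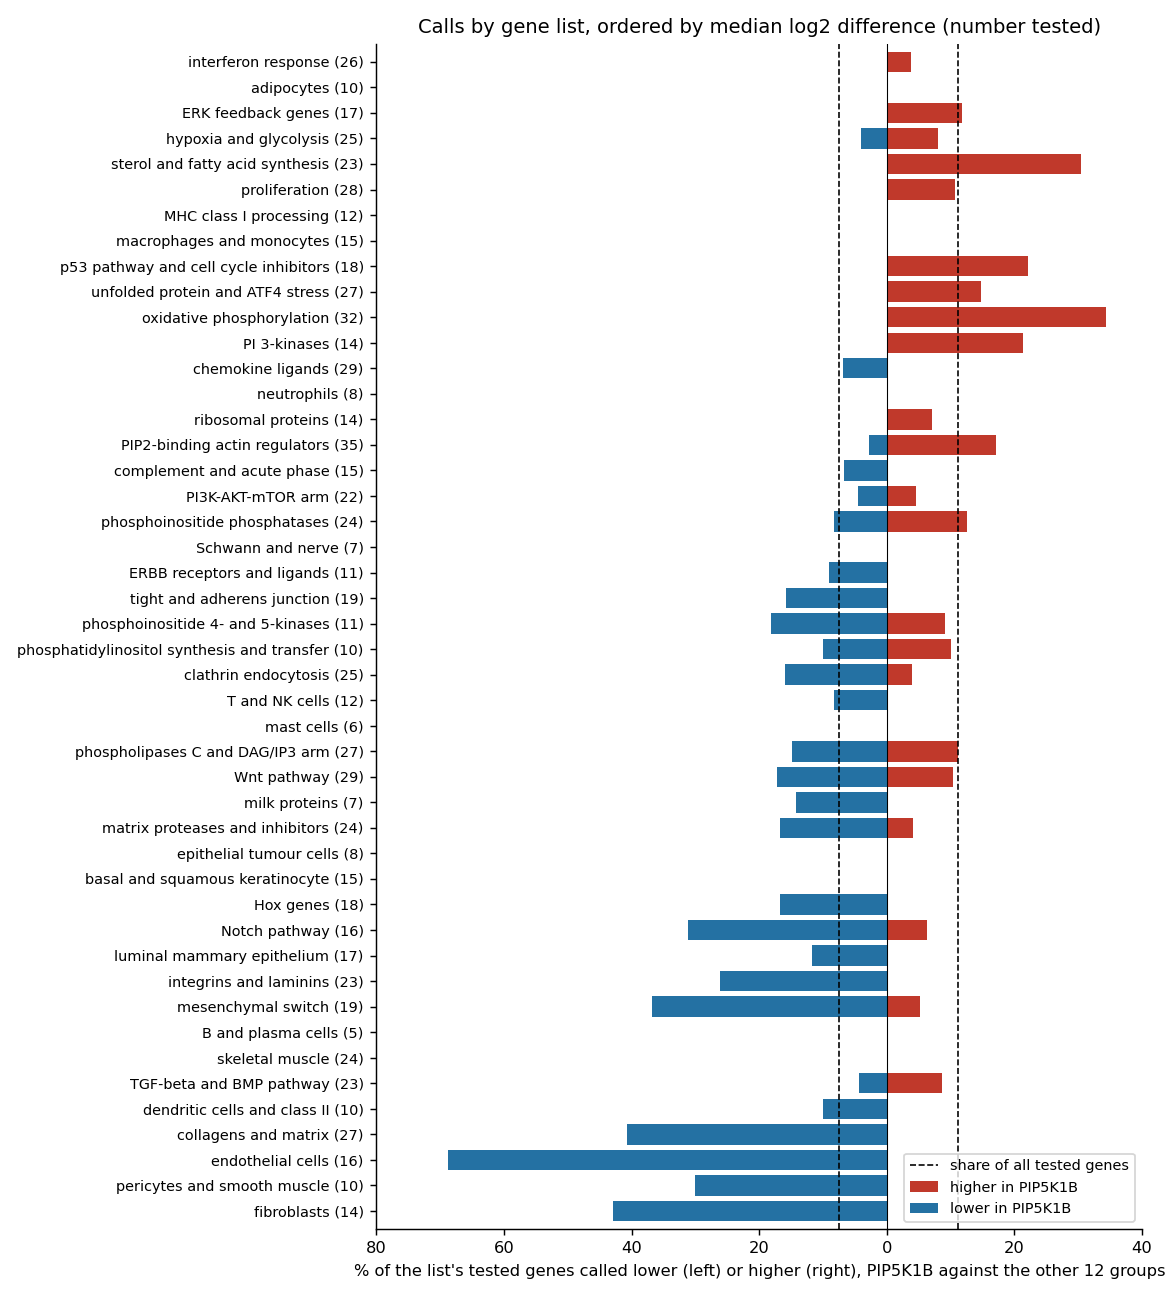
Share of tested genes, for each list shown, called higher (right, red) or lower (left, blue) in PIP5K1B tumours against the other 12 groups, with dashed lines at the shares over all tested genes, 11.2% and 7.45%. Endothelial, fibroblast and matrix lists reach far past the lower line, and oxidative phosphorylation and sterol synthesis past the higher one.

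Genes of the tumour stroma were lower. Of 16 endothelial markers 11 were called lower in PIP5K1B tumours and 0 higher (68.8% lower, median log2 difference -0.45), but limma called 0 with pairs as a block, where 11 had an unadjusted p under 0.05. Of 14 fibroblast markers 6 were lower (42.9%, median -0.59) and 3 with the block. Of 27 collagen and matrix genes 11 were lower (40.7%, median -0.43) and 7 with the block. In bulk tumour RNA, fewer stromal cells and less RNA in each cannot be told apart.

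Col1a1, the main fibrillar collagen, read 9.92, 11.38, 10.39, 10.44, 11.11 and 10.19 in PIP5K1B tumours, against 9.79 to 12.40 with a median of 11.50 on the other arrays, a log2 difference of -0.93 (SE 0.19). All 6 arrays lay below that median, the second pair closest to it. Fap, a surface protease of activated fibroblasts, was lower (log2 difference -0.96, SE 0.22), as were Thbs2 (-1.04, SE 0.27) and Col12a1 (-1.20, SE 0.29). The receptor Pdgfra was lower (log2 difference -0.84, SE 0.24) and lost the call with the block. Among endothelial genes the VEGF receptor Kdr was lower (log2 difference -0.61, SE 0.16), as were the angiopoietin receptor Tek (-0.59, SE 0.22), its relative Tie1 (-0.70, SE 0.18) and the cadherin Cdh5 (-0.53, SE 0.18).

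The size of this difference followed the pairs. The mean of the fibroblast list on the PIP5K1B arrays was -1.01 and -0.59 in the first pair, -0.53 and -0.81 in the third, and -0.09 and -0.11 in the second. The endothelial list gave -0.89 and -0.63, -0.20 and -0.45, and -0.14 and -0.20 in the same order of pairs. Without the first pair 0 endothelial, 1 fibroblast and 0 collagen genes were called lower, and without the second 11, 7 and 17. Without T1 replicate 1 alone they were 0, 4 and 7, and without the third pair 4, 2 and 4. Without the MAP3K11 group 3 endothelial genes were called lower. The fibroblast mean of the PIP5K1B group was -0.52, against -0.65 for HER2, -0.61 for FAK1 and 0.65 for RSK2, so PIP5K1B stood with the groups low in fibroblast markers rather than alone.

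Other contents differed among the same arrays. The skeletal muscle list stood at 1.09 and 3.19 in the second pair and at -1.37 to -0.77 in the other 4 PIP5K1B arrays, and limma called 0 of the 24 muscle genes (2 at an unadjusted p under 0.05). Of 15 macrophage markers limma called 0 (1 at an unadjusted p under 0.05), and their mean was 0.58 and 0.71 in the first pair and -0.36 to 0.19 in the others. The part of stromal and muscle content in the differences of other genes was not tested, apart from adding the fibroblast mean to the fit, an alternative chosen after seeing the data, and the skeletal muscle mean in its place. The muscle mean left 2622 called genes, against 2593 without it, and 10 endothelial, 6 fibroblast and 11 collagen genes called lower. The fibroblast mean left 780 called genes, with Glp1r, Crip2, Anxa8 and Acsl6 among them, and 0 endothelial, 2 fibroblast and 3 collagen genes called lower. That mean is made of the fibroblast genes themselves, and the collagen list shares members with it, such as Col1a1. The drop in the fibroblast and collagen lists was thus partly fixed in advance.

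Adhesion and signalling lists held further lower calls. Of 23 integrin and laminin genes 6 were lower (26.1%, against 7.45% of all genes) and 3 with the block, among them Lama4 (-0.74, SE 0.18) and Itga9 (-0.59, SE 0.13). Of 19 genes of the mesenchymal switch 7 were lower (36.8%), and 1 with the block, led by Mmp2, Twist2 (-0.96, SE 0.26) and Cdh11 (-0.88, SE 0.23). Cdh2 (N-cadherin), named after its value was seen, was higher by 0.81 (SE 0.18) and lies on chromosome 18. Of 16 Notch pathway genes 5 were lower (31.2%), among them Jag1 (-0.76, SE 0.25), Notch4 (-0.69, SE 0.17) and Notch3 (-0.66, SE 0.18). With the block 0 were called lower, where 5 had an unadjusted p under 0.05. The Wnt antagonists Sfrp2 and Sfrp1 were lower (log2 differences -1.16, SE 0.38, and -0.90, SE 0.32), and neither was called with the block. Without T1 replicate 1 the lower counts were 4 for integrins and laminins, 2 for the mesenchymal switch and 1 for Notch, and without the first pair 2, 0 and 0.

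**Figure D4:**
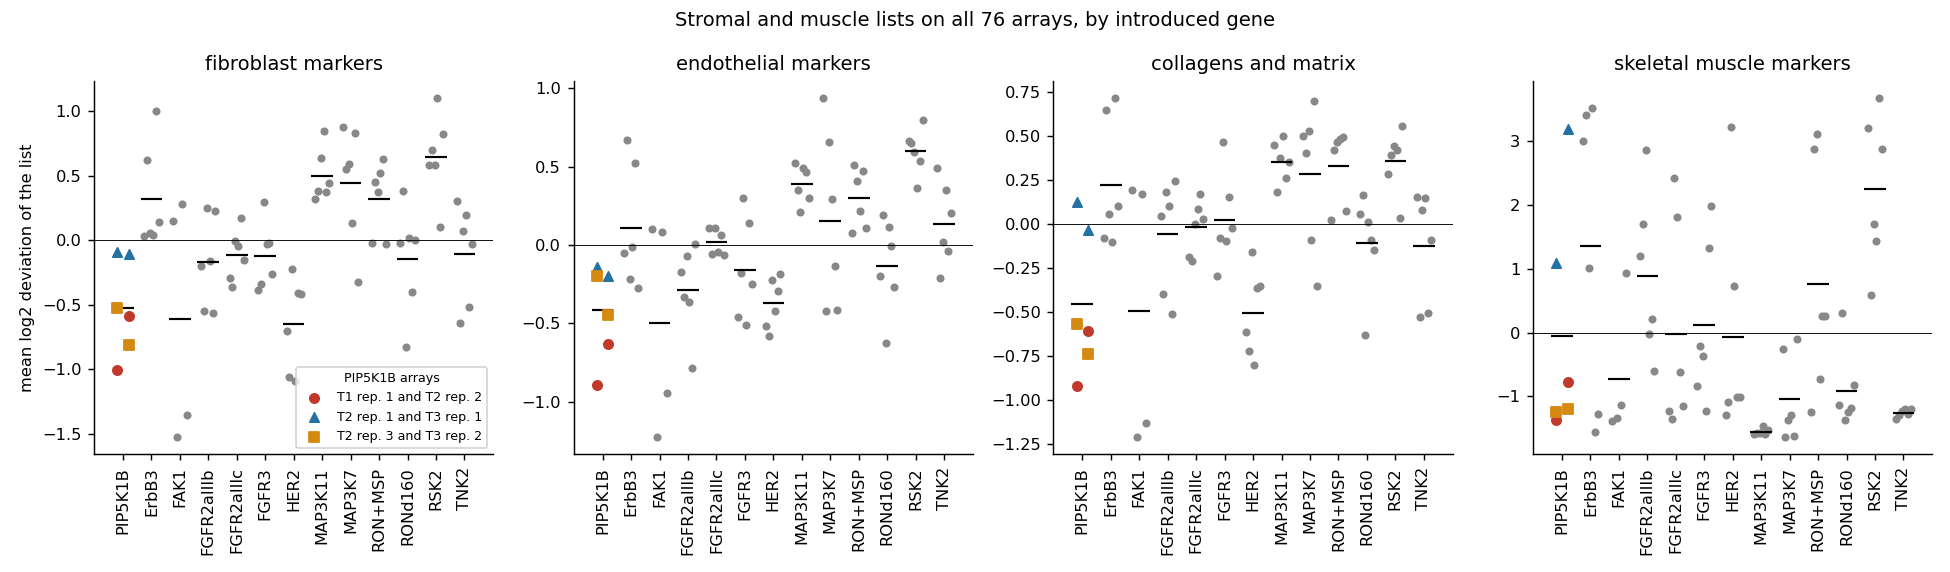
Mean log2 deviation of 4 lists on every array, with PIP5K1B at the left (shapes mark its pairs) and bars for group means. For fibroblasts the PIP5K1B mean was -0.52, and for skeletal muscle the second pair stood at 1.09 and 3.19, above the other 4 PIP5K1B arrays.

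Metabolic lists held the higher calls. Of 32 subunits of oxidative phosphorylation 11 were higher and 0 lower (34.4%, median 0.08), by log2 differences of 0.09 to 0.24, and with the block only Ndufa2 stayed, which is the list's 1 tested gene on chromosome 18 (0.24, SE 0.05). The 11 became 4 once the arrays were quantile normalized and 4 without the MAP3K11 group. Of 23 genes of sterol and fatty acid synthesis 7 were higher (30.4%, against 11.2% of all genes, median 0.17), and 1, Scd2, with the block. They included the desaturase Scd2 (0.48, SE 0.09), Fdps (0.50, SE 0.13) and Msmo1 (0.47, SE 0.14). Without the first pair 1 gene of each of these lists was called higher, and without the third pair 4 of sterol synthesis and none of oxidative phosphorylation. Phgdh, the first enzyme of serine synthesis, read 10.75 to 11.18 in PIP5K1B tumours, against 8.89 to 11.12 with a median of 10.44 on the other arrays, and was higher by 0.62 (SE 0.14) in both fits.

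Of 18 genes of the p53 pathway and cell cycle inhibitors 4 were higher (22.2%, against 11.2% of all genes) and 0 lower. With the block 3 of them stayed: Zmat3 (0.48, SE 0.10), Cdkn2c (0.45, SE 0.13) and Ccng1 (0.36, SE 0.08). Their levels were not particular to PIP5K1B, whose group mean ranked 1, 4 and 2 from the top. FAK1 reached 9.835 for Zmat3, against 9.909 in PIP5K1B, and FGFR3 11.098 for Ccng1, against 11.095. The lowest means were those of MAP3K11 for Zmat3 and Cdkn2c and of MAP3K7 for Ccng1. Of 28 proliferation genes 3 were higher and 0 lower, with a median of 0.16 (10.7% higher, near the 11.2% of all genes), and 0 were called by limma with the block (3 at an unadjusted p under 0.05). The 3 calls were also lost without any 1 array of the first pair or the third, and 16 were called without the second pair. Of 26 interferon-response genes 1 was called (3.85%), Usp18 (0.99, SE 0.33), with a list median of 0.36, and limma called 0 with the block (6 at an unadjusted p under 0.05). Its mean on the PIP5K1B arrays ran between -0.01 and 0.86.

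Epithelial genes were mostly not called. Of 19 junction genes 3 were lower (15.8%, against 7.45% of all genes), and 1 with the block. F11r (a junctional adhesion molecule) read 8.22 to 8.74 in PIP5K1B tumours, against 8.22 to 10.31 with a median of 9.16 on the other arrays. Its log2 difference was -0.80 (SE 0.15), called in both fits. Dsp (desmoplakin) lay at background, 2.75 to 3.21, on all 6 PIP5K1B arrays, against a median of 4.29 and a highest value of 10.97 on the others, and its difference of -2.30 (SE 0.74) lost the call with the block. Of 15 basal and squamous keratinocyte genes limma called 0 (1 at an unadjusted p under 0.05). Of 17 luminal genes 2 were lower (11.8%), and 0 with the block (2 at an unadjusted p under 0.05). Of these, Aldh1a3, an enzyme of retinoic acid synthesis, read 8.06 and 8.35 in the second pair and 3.79 to 4.21 in the other 4 PIP5K1B arrays, against 4.54 to 12.38 on the other 70 arrays, and its difference of -2.08 (SE 0.59) lost the call with the block. Its other probe sets differed by -1.02 (SE 0.455) and -0.978 (SE 0.459), neither called over all probe sets. The HER2 group had a lower mean, 5.16, than the 5.395 of PIP5K1B.

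Set against HER2 given back, the group closest to the starting tumour by its driver, 1192 genes (8.6%) were called in PIP5K1B tumours, 555 higher and 637 lower, and 263 (1.9%) with pairs as a block, 109 higher and 154 lower. Ntn1 (netrin, a guidance cue) was higher by 2.74 (SE 0.56), Adgra2, an adhesion G protein-coupled receptor, by 2.67 (SE 0.30), Glp1r by 2.53 (SE 0.34), Acsl6 by 2.46 (SE 0.45) and Hoxa5 by 2.20 (SE 0.37). Adgra2 was even within the group, at 9.35 to 9.83 in PIP5K1B tumours, against a mean of 6.91 in HER2 tumours. Hoxa5 was at 6.35 and 6.38 in the second pair and 8.07 to 8.44 in the rest, against a mean of 5.38 in HER2 tumours. HER2 had the lowest mean of all groups for Adgra2 and Hoxa5. From the top PIP5K1B ranked 3 for Ntn1 and 5 for Hoxa5, and 1 for Adgra2, Glp1r and Acsl6. Against the other 12 groups the Hoxa5 probe set used differed by 0.71 (SE 0.28) and its other probe set by 0.08 (SE 0.07).

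Lower than in HER2 tumours were Anxa8 (-3.31, SE 0.42), the water channel Aqp5 (-3.00, SE 0.55), the transcription factor Sp8 (-2.89, SE 0.28) and the serpin Serpinb5, known as maspin (-2.72, SE 0.38). HER2 had the highest mean of all groups for Aqp5, Sp8 and Serpinb5, where PIP5K1B ranked 9, 12 and 13 from the top. Sp8 lay at background in PIP5K1B tumours, 2.59 to 2.95, against a mean of 5.70 in HER2 tumours, so the size of its difference is limited by background. Aqp5 read 6.71 to 7.64 in PIP5K1B tumours, against a mean of 10.11 in HER2 tumours. The surface protease Tmprss11e was lower (log2 difference -3.89, SE 1.11), but on 4 arrays: it read 2.60 to 3.06 in the first pair and the third and 8.42 and 8.61 in the second, against a mean of 8.62 in HER2 tumours. The 4 low arrays lay at background, so the size of this difference is limited by background too.

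The PIP5K1B tumours also differed among themselves. In 1123 genes (8.1%) the means of the 3 pairs spread over at least 2-fold, and the median spread of pair means was 0.30, against a median largest difference within a pair of 0.19. Since the pairs were matched on the same arrays, these values are a description. In most of the widest genes shown here the second pair stood apart from the other PIP5K1B arrays. Stmn2, a tubulin-binding protein of nerve cells, read 12.29 and 12.28 there and 5.18 to 6.09 in the other 4 PIP5K1B arrays. The other 70 arrays read 5.09 to 12.55 with a median of 11.50. For Stmn2 the second pair thus lay nearer to that median, and the other 4 PIP5K1B arrays lay far below it. Tspan1, a tetraspanin, read 9.92 and 9.42 in the second pair and 4.27 to 4.44 in the rest, against at most 6.03 on the other arrays. Cacna1h, a calcium channel, read 7.18 and 7.50 there and 3.17 to 3.70 in the rest, against at most 5.75 on the others. Tspan1 and Cacna1h were thus above every other tumour of the series in 2 of the 6 arrays. Bnc1, a keratinocyte transcription factor, ran the other way, at 5.30 and 5.26 in the second pair and 9.25 to 9.78 in the rest, against 5.68 to 10.38 on the others.

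Not every split set the second pair apart. Nefl, a neurofilament subunit, was low in the first pair, 6.11 and 5.46, and 8.74 to 10.12 in the other 4 arrays. Crabp1, which binds retinoic acid, read 11.35 and 11.17 in the first pair, 9.53 and 8.95 in the third and 7.67 and 7.18 in the second. Beside this spread, Glp1r, Crip2, Crip1, Fam83h and Etl4 each differed from the other groups by more than their own range within the PIP5K1B group. Other named genes, such as Acsl6, Tmem255a and Lgalsl, did so too. All 6 arrays of each of these genes lay on the same side of the average of the other groups. Except for Crip1, this was a condition for naming them, so it cannot show that they were even. For Fam83h the ErbB3 group, with a mean of 4.698, lay below the PIP5K1B mean of 4.84.

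**Figure D5:**
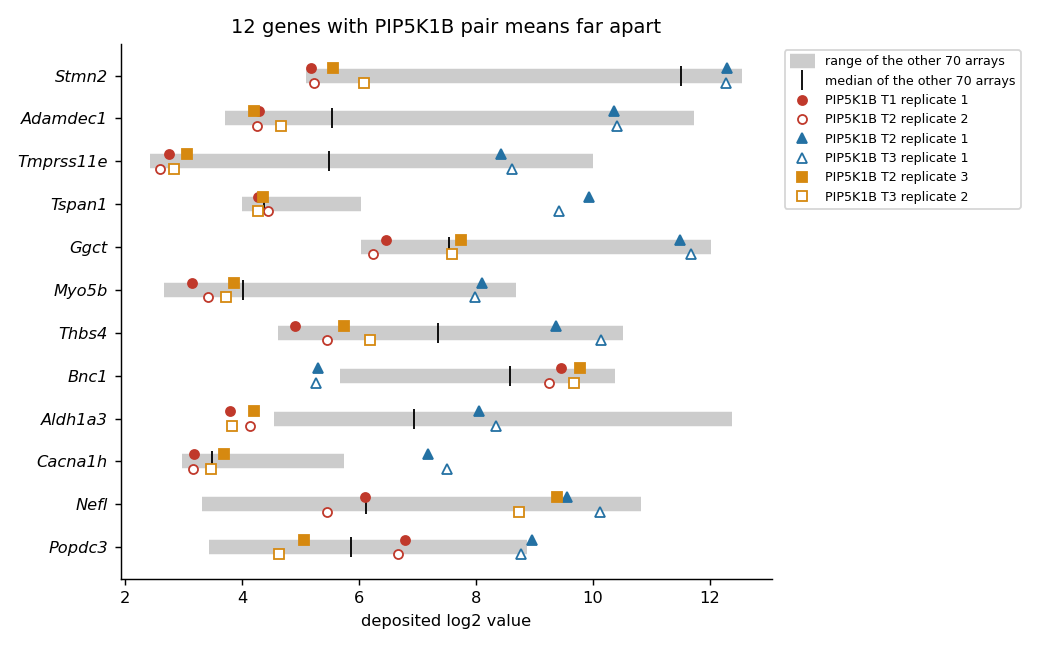
Deposited log2 values of 12 genes with wide separation between the PIP5K1B pairs (arrays of a pair less than 1 log2 unit apart), where symbols are the PIP5K1B arrays, grey bars the range and ticks the median of the other 70 arrays. The second pair (triangles) stood apart from the other PIP5K1B arrays in most of them, as for Stmn2 at 12.28 and 12.29 against 5.18 to 6.09. The median of the other 70 arrays for Stmn2 was 11.50.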

How the data were processed

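The deposited log2 values of 76 arrays were used as given. Per the submitters' processing notes affy was used, without a version. The authors' background correction and normalization are not given in the sources used here, and near-equal quartiles (3.70 to 3.92 and 7.60 to 7.81) show that the arrays had been normalized. Of the probe sets, 34958 name 1 gene, 932 several and 9211 none. For 34754 the gene was found in GRCm38.p6 (0 symbols changed). Of 18194 genes, those above the 40th percentile of the array in at least 4 arrays were tested. No column was left unused, and 0 arrays were identical.

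Group means with the T label as a factor were fitted over all arrays with limma 3.58.1 in R 4.3.3 (61 residual degrees of freedom), with Benjamini-Hochberg adjustment, two-sided. Recovery of known differences by the fit with arrays as separate was checked on simulated arrays that were independent. That check therefore does not cover the correlation within pairs. A simulation with correlated pairs was run for both fits, and its outcome is not given here. Pairs within each group were matched on the medians of 19 autosomes. The number of arrays limits the precision. Named genes are the 12 highest and 12 lowest called in both fits with all 6 arrays on 1 side of the other groups' mean, and 5 in each direction against HER2 by a like rule. Up to 5 in each direction called against each group were added from the fit with arrays as separate, without the block or the condition on the 6 arrays. The rest are up to 4 called members of each list in its main direction, and all phosphoinositide 4- and 5-kinases. The 48 lists name 1007 members, of which 929 were measured and 852 tested. The members, lists and pairs were chosen with earlier results of these data known. The title's gene is not reported here. Alternatives changed the pairs, the T term, the replicate block, filter, scaling, probe set, variance prior, array weights, covariates, threshold and the arrays or groups left out.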

Additional observations from a re-analysis of the deposited data

Results flagged for a closer look

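Of 99 values checked for a PIP5K1B array far from the other 5, 2 stood apart by Dixon's test. Chance alone marks about 1 in 20 when arrays are independent, a rate that need not hold for arrays in pairs. The mean of the list of epithelial tumour cells was 0.183 on T3 replicate 2, with the nearest PIP5K1B array at -0.066 and the lowest at -0.194. The mean of the phosphoinositide 4- and 5-kinases was 0.016 on T3 replicate 1, with the nearest at -0.063 and the lowest at -0.109. Neither list had a call with pairs as a block.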

How the results depend on the processing

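The counts depend first on how the pairs are treated. Against the other 12 groups, 2593 called genes became 501 with pairs as a block, 129 with the mean of each pair as 1 sample, 4929 with array weights, 1097 at an adjusted p under 0.01, and 780 with the fibroblast mean as a covariate, which was chosen after seeing the data. They became 639 without the first pair, 4045 without the second, 586 without the third, and 1290 to 3331 when 1 PIP5K1B array was left out. Against HER2, 1192 became 263 with the block, 57 with pair means, 2584 with array weights, 504 at the stricter threshold, 559 without the first pair, 1641 without the second, and 846 to 1292 with 1 array left out. Called against each of 12 groups, 32 became 5 with the block, 1 with pair means, 156 with array weights, 10 with the fibroblast covariate, 12 at the stricter threshold, 172 without the second pair, 8 without the third, and 13 to 76 with 1 array left out. The T label and number as a replicate block gave 2298, 1119 and 26. Arrays that share a T label and number did not deviate together (median r 0 over 54 combinations, against -0.005 over 366 others), so the numbers do not pair the samples. Quantile normalization turned the share of higher calls to 44.5%, against 60.2%. The sign turned for Ap2b1 (0.022 with all probe sets averaged, 0.045 with the most variable probe set), and for Pip4k2b (-0.049, on a probe set at background) and Zap70 (0.018), both with the most variable probe set. Of the 24 named genes of the main comparison, 8 (Glp1r, Crip2, Anxa8, Acsl6, Etl4, Fam83h, Lgalsl and Tmem255a) kept their call under all alternatives that held them, of 36, and 16 lost it in at least 1. None changed sign. The cause of these changes was not tested.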

Other observations

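Other gene groups held few calls in PIP5K1B tumours against the other 12 groups, where 11.2% of all tested genes were higher and 7.45% lower. Of 17 ERK feedback genes 2 were higher (11.8%, near the share over all genes), Fosl1 (log2 difference 0.58, SE 0.20) and Spry4 (0.45, SE 0.13, on chromosome 18), and of 11 ERBB receptors and ligands 1 was lower (9.09%), Egfr (-0.73, SE 0.20). Of 25 hypoxia and glycolysis genes 2 were higher (8%), led by Egln3, an oxygen sensor of the HIF pathway (1.25, SE 0.38), and 1 lower. With pairs as a block limma called 0 in these 3 lists, where 3 ERK feedback, 2 ERBB and 3 hypoxia genes had an unadjusted p under 0.05. Of 27 genes of the unfolded protein and ATF4 response 4 were higher (14.8%), and 1, Phgdh, with the block. The activin subunit Inhbb was higher by 0.85 (SE 0.25) and, with Grem1, made up the 2 higher calls among 23 TGF-beta and BMP genes (8.7%), of which 1 was lower. With the block Grem1 was the 1 call of that list.

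Of 24 matrix proteases and inhibitors 4 were lower (16.7%) and 1 higher, and with the block Mmp2 and Adamts1 (-0.61, SE 0.16) were lower. Of 29 Wnt pathway genes 5 were lower (17.2%) and 3 higher (10.3%), and with the block 1 was higher and 0 lower (7 lower at an unadjusted p under 0.05). Of 18 Hox genes 3 were lower (16.7%), of 29 chemokines 2 (6.9%, Ccl17 and Cxcl1) and of 10 pericyte markers 3 (30%). With the block limma called 0 in each of these 3 lists, where each had 3 genes with an unadjusted p under 0.05. Among milk proteins 1 of 7 was lower (14.3%), Mfge8 (-0.28, SE 0.08), also with the block. Of 14 ribosomal proteins 1 was higher (7.14%, Rps6), and of 10 genes of phosphatidylinositol synthesis 1 was higher (10%, Impa1) and 1 lower (10%, Pitpnm3). Of 10 dendritic, 12 T and NK cell and 15 complement genes, 1 each was lower (Ciita, Zap70 and Serping1, or 10%, 8.33% and 6.67%). The sign of Zap70 turned with the most variable probe set. With the block limma called 0 in these 5 lists, where the unadjusted p was under 0.05 for 0 ribosomal, 2 phosphatidylinositol synthesis, 1 dendritic, 1 T and NK cell and 1 complement genes.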
